A study of Homo sapiens with 12 samples.

Results

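The retinoblastoma (RB) pocket proteins and the MuvB complex with its partners B-MYB and FOXM1 were followed by their RNA in Granta-519 and JeKo-1, human mantle cell lymphoma lines. The 10 genes were chosen by name: the pocket proteins RB1, RBL1 and RBL2, the MuvB subunits LIN9, LIN37, LIN52 and LIN54, the MYB family genes MYBL1 and MYBL2, and FOXM1. All 10 had 1 row each among the 23617 gene symbols of the Granta-519 table and the 23615 of the JeKo-1 table. Lentiviral shRNA was used to silence cyclin D1 (shCycD1), control cells received a control shRNA labelled shCtrl, and infected cells were kept in puromycin. Each of the 4 groups held 3 libraries: Granta-519 shCycD1, Granta-519 shCtrl, JeKo-1 shCycD1 and JeKo-1 shCtrl. Every group therefore carried a lentiviral vector and had gone through puromycin, and each comparison rests on a single cell line. The series design calls the 3 libraries biological replicates, with nothing on separate infections, so p-values measure the spread between these libraries.

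The pocket proteins are repressors that bind E2F transcription factors, and cyclin D with CDK4 or CDK6 phosphorylates them so that E2F is released. MuvB is a core complex that works in opposite ways through the cell cycle. With RBL1 or RBL2 and E2F4 it forms DREAM, which represses cell cycle genes in quiescent and early G1 cells. With B-MYB (the product of MYBL2) and then FOXM1 it activates genes of the G2 phase and mitosis. Cyclin D1 is overexpressed in mantle cell lymphoma through a translocation, and the comparisons ask how the RNA of this machinery stood after its silencing.

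The values are RPKM (reads per kilobase of gene length, scaled to library size), and changes are differences of log2(RPKM + 0.5), shCycD1 minus shCtrl, from limma fits across all tested genes of a line with Benjamini-Hochberg adjusted p under 0.05 as the call. Folds are computed from these changes, so they include the added 0.5 and come out smaller than plain ratios of mean RPKM. The targeted gene CCND1 stood at 268 ± 47.3 RPKM in Granta-519 shCycD1 and 947 ± 87.2 in shCtrl (SD, n = 3 each), and at 65.9 ± 1.39 in JeKo-1 shCycD1 and 347 ± 42.3 in shCtrl. Of 8 B-cell markers all but CD5 reached 1 RPKM in Granta-519 and all did in JeKo-1. Their summed level was 2178 to 2261 RPKM in Granta-519 shCycD1 against 2387 to 2503 in shCtrl, and 1286 to 1458 in JeKo-1 shCycD1 against 917 to 1056 in shCtrl. The 8 T and NK cell markers summed to at most 1.45 RPKM in any Granta-519 library and 3.79 in any JeKo-1 library. The 8 myeloid markers summed to 40.9 to 47.7 RPKM in Granta-519 shCycD1 and 46.9 to 52.8 in shCtrl, with 5 below 1 RPKM in every library and S100A8 and MPO listed at 0. In JeKo-1 they summed to at most 2.41 RPKM in any library, with 7 below 1 RPKM and FCGR3A, S100A8, S100A9 and MPO at 0. The 8 epithelial and fibroblast markers summed to 540 to 624 RPKM in Granta-519 shCycD1 and 565 to 638 in shCtrl, and to 154 to 179 in JeKo-1 shCycD1 and 143 to 174 in shCtrl, with 4 of 8 below 1 RPKM in each line. The others of this list, which reached 1 RPKM in a library, were KRT18, COL1A1, VIM and PDGFRB in Granta-519. In JeKo-1 they were EPCAM, KRT8, VIM and PDGFRB. The Granta-519 values fit a gene length that includes introns, and the length behind the JeKo-1 values is not stated. Sums over genes and the 1 RPKM line therefore depend on gene length as well as on RNA level. The part of these markers in the results was not tested.

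Of the 10 genes, MYBL2 and FOXM1 had the lowest changes in both lines (-1.48 for each in Granta-519, -2.82 and -3.38 in JeKo-1). RBL1, LIN9 and LIN54 also fell in both. RBL2 and LIN37 did not fall in either line, and LIN52 passed the test in neither. In Granta-519, 7 of the 10 genes were called, 6 lower and 1 higher, where 40.6% of the 12668 tested genes were, 18.2% lower and 22.4% higher. In JeKo-1, 7 of 9 tested genes were called, 6 lower and 1 higher, where 64.6% of 11866 were, 27.8% lower and 36.7% higher. A call with a log2 change of -1 or lower was reached by 3 of the 10 genes in Granta-519 (3.0% of all tested genes) and by 4 of 9 in JeKo-1 (6.98%). The change differed between the lines for 6 of 9 genes, 5 with a higher value in Granta-519 and 1 with a lower one, where 41.9% of 10653 genes differed, 19.3% higher and 22.6% lower. Every tested gene of the set stood at 1 RPKM or more in every library of its line, so none entered the test through 1 group alone. The median change of the set was -0.83 in Granta-519 (0.03 over all tested genes) and -0.84 in JeKo-1 (0.09). The 3 libraries of each group did not overlap for 8 of the 10 genes in either line, and the same held for 54.0% of what was tested in Granta-519 and for 69.6% in JeKo-1. In such bulk RNA fewer cells in a cell cycle phase and less RNA per cell cannot be told apart. Each change is measured against the rest of its library. Scaling by the spike-in RNAs moved the median of all genes to 0.72 in Granta-519 and to -0.03 in JeKo-1. With it 2 of the 10 genes were called lower (MYBL2 and FOXM1) and 2 higher (LIN37 and RBL2) in Granta-519, and 6 lower and 0 higher in JeKo-1.

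**Figure D1:**
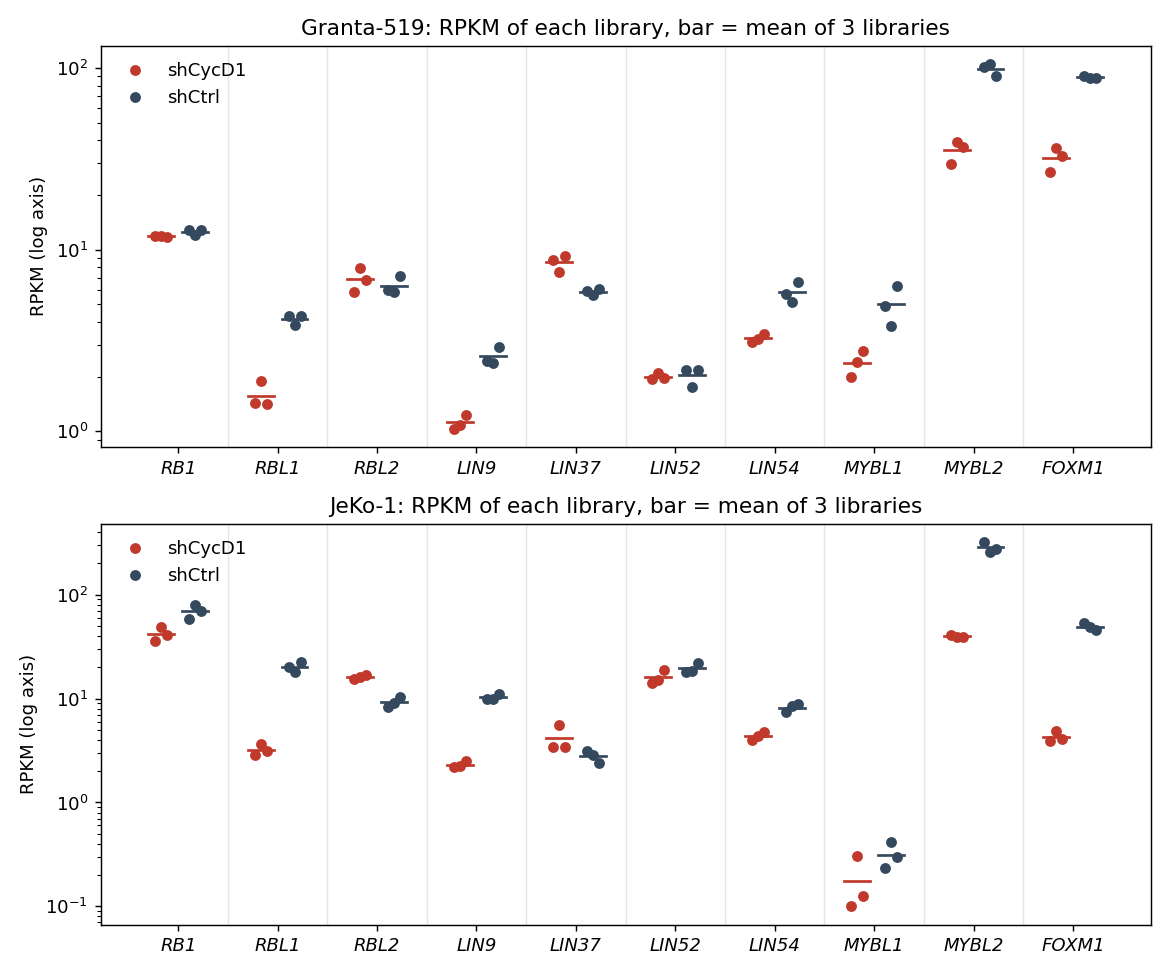
RPKM (log axis) of the 10 genes in each library of Granta-519 (top) and JeKo-1 (bottom), with shCycD1 left of shCtrl for each gene; points are libraries and bars the mean of 3. The groups stand apart in both lines for MYBL2, FOXM1, RBL1, LIN9, LIN54 and RB1, lower in shCycD1, and for LIN37, higher in shCycD1. MYBL1 stays below 1 RPKM in JeKo-1.

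**Figure D2:**
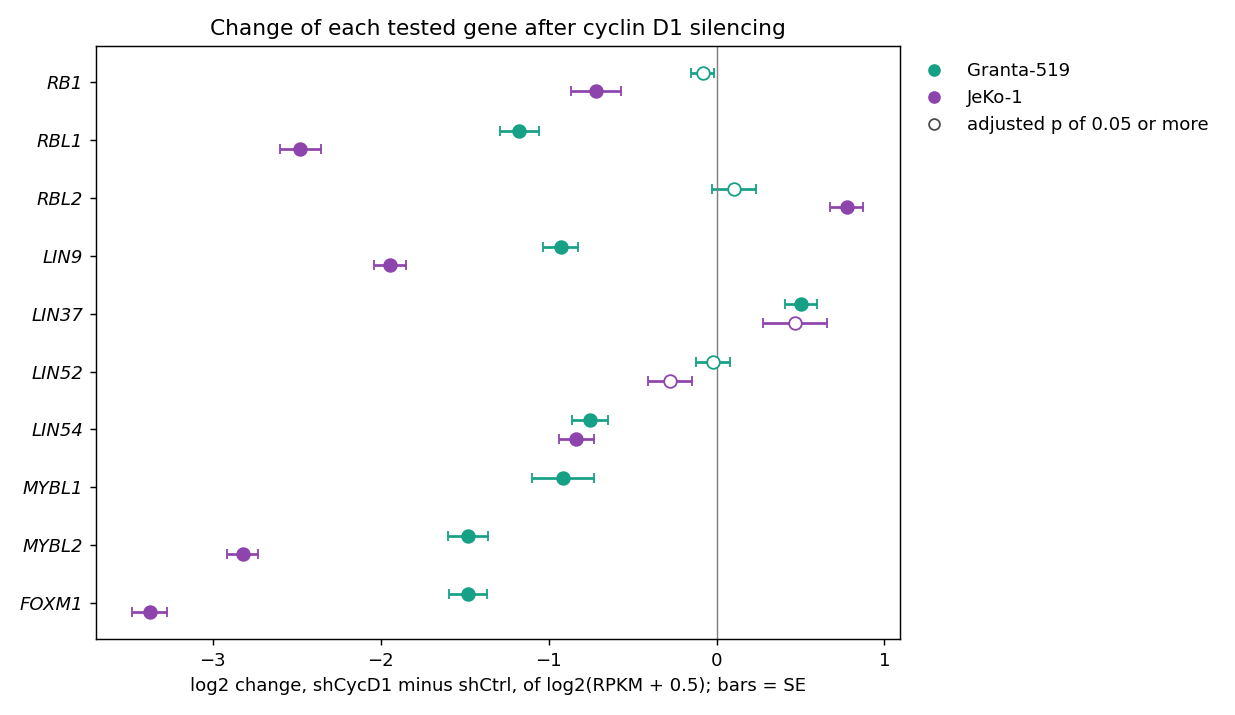
Log2 change (shCycD1 minus shCtrl) of each tested gene with its SE, Granta-519 above JeKo-1 within each gene; open points did not pass the test, and MYBL1 was not tested in JeKo-1. FOXM1 lies at -1.48 in Granta-519 and at -3.38 in JeKo-1; LIN54 lies at -0.75 and at -0.84.

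Among the pocket proteins RBL1 fell in both lines, RBL2 was called higher in JeKo-1, and RB1 was called lower in JeKo-1. RBL1 (p107) is itself an E2F target and pairs with E2F4 in cycling cells. It had 1.42, 1.89 and 1.41 RPKM in the Granta-519 shCycD1 libraries, against 4.32, 3.86 and 4.31 in shCtrl. The fall was 1.17 on the log2 scale (SE 0.12, limma adjusted p = 0.000521). With spike-in scaling the value was -0.56 and missed the test (adjusted p = 0.0782). In JeKo-1 RBL1 had 2.85, 3.68 and 3.12 RPKM in the shCycD1 libraries, against 20.1, 18.03 and 22.5 in shCtrl. Every silenced library lay far below every control library. The change was -2.48 (SE 0.12, limma adjusted p = 5.13e-06), a 5.57-fold fall. The change differed between the lines by 1.30 (Granta-519 minus JeKo-1, SE 0.17, limma adjusted p = 0.000137).

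The promoter windows of the set are shown because DREAM and E2F are known to act at such sites. A RefSeq window of 250 bases before to 50 after a transcript start (GRCh38.p14) was found for 8 of the 10 genes, FOXM1 and MYBL1 having no entry in the table used. The RB1 window belongs to a start 172699 bases inside the gene and is not used for RB1. Windows were searched on both strands for E2F-like letters (TTTCGCGC, TTTGGCGC, TTTCCCGC, TTTGGCGG and TTCCCGCC) and for the CHR letters TTTGAA or TTCGAA. TTTCCCGC and TTCCCGCC overlap when they read TTTCCCGCC. The CHR, or cell cycle genes homology region, is the element that LIN54 contacts. Of 35116 windows of all genes, 5.64% held E2F-like letters and 16.4% held CHR letters. Such a match describes letters only and is not shown to be a site, and a window without a match is not shown to lack one. The RBL1 window (chr20:37095948-37096247, minus strand) held E2F-like letters starting 26 and 16 bases before the start. The first RBL2 window (chr16:53434221-53434520, plus strand) held CHR letters 24 bases after it. Capitals mark the matches.
RBL1: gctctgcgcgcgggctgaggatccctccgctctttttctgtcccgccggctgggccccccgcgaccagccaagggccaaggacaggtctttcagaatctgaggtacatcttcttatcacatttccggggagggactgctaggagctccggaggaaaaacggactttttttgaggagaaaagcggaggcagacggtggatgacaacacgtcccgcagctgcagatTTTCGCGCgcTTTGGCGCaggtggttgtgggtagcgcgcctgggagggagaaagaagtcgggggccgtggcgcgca
RBL2: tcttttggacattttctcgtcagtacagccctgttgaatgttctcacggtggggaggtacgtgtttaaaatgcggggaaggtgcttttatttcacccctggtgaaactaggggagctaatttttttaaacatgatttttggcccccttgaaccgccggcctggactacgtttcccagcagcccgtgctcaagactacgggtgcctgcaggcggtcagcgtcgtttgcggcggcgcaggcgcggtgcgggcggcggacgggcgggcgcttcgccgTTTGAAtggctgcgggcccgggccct

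RBL2 (p130) is the pocket protein that dominates DREAM in resting cells. In Granta-519 it had 5.86, 7.92 and 6.82 RPKM in shCycD1 libraries and 5.97, 5.84 and 7.20 in shCtrl, with the groups overlapping. The change was 0.10 (SE 0.13, limma adjusted p = 0.567), and 0.80 with spike-in scaling (adjusted p = 0.0225), close to that scaling's median over all genes of 0.72. In JeKo-1 it had 15.5, 16 and 16.9 RPKM in shCycD1 libraries and 8.34, 9.04 and 10.3 in shCtrl. All silenced libraries stood above all controls, and RBL2 was the only one of the 9 tested genes called higher in this line. The change was 0.78 (SE 0.10, limma adjusted p = 0.000405), or 0.66 without a call under spike-in scaling (adjusted p = 0.0880). The difference between the lines was -0.67 (SE 0.17, limma adjusted p = 0.00741), and 0.14 without a call with spike-in scaling (adjusted p = 0.792). The AKTIP gene overlaps RBL2 in RefSeq. It was at 0.19 in Granta-519 (limma adjusted p = 0.168) and 0.26 in JeKo-1 (limma adjusted p = 0.0604). AKTIP stayed without a call in 14 of 16 alternatives in Granta-519 and 13 of 16 in JeKo-1. In Granta-519 spike-in scaling (0.88, adjusted p = 0.0118) and library weights (0.29, adjusted p = 0.0156) called it higher. So did, in JeKo-1, removal of a trend with GC content (0.57, adjusted p = 0.0031) and leaving out shCtrl replicate 2 (0.35, adjusted p = 0.0235). Whether the authors counted reads by strand is not given in the sources used here.

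RB1, the tumour suppressor that restrains the activating E2F factors, had 11.9, 11.9 and 11.8 RPKM in Granta-519 shCycD1 libraries and 12.8, 12.04 and 12.9 in shCtrl. The groups were narrowly apart, and the change of -0.08 did not pass the test (SE 0.07, limma adjusted p = 0.386). With spike-in scaling it was 0.64, again with no call (adjusted p = 0.0635). In JeKo-1 RB1 had 35.9, 48.7 and 40.9 RPKM in shCycD1 libraries, against 58.0, 80.2 and 69.6 in shCtrl. All silenced libraries were below all controls, in spite of the wide spread within each group. The fall was 0.72 (SE 0.15, limma adjusted p = 0.00414), and -0.37 after removal of a trend with GC content (adjusted p = 0.0242). The lines differed by 0.64 (SE 0.17, limma adjusted p = 0.0116), and by 0.30 without a call once the GC trend was removed (adjusted p = 0.110). LPAR6, a receptor gene that overlaps RB1, was at 1.36 ± 0.20 RPKM in Granta-519 shCycD1 and 1.21 ± 0.20 in shCtrl (SD, n = 3 each), and below 0.1 RPKM in every JeKo-1 library.

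Ratios of the pocket protein RNAs were also taken within each library, a measure that scaling between libraries hardly touches. The log2 ratio of RBL2 to RBL1 was 1.72, 1.82 and 1.93 in Granta-519 shCycD1 libraries and 0.42, 0.54 and 0.68 in shCtrl. In JeKo-1 it was 2.26, 1.98 and 2.26 in shCycD1 libraries and -1.22, -0.96 and -1.08 in shCtrl. The ratio was therefore higher after silencing in 3 of 3 libraries of each line, by 1.28 in Granta-519 and 3.26 in JeKo-1. In Granta-519 the ratio mostly follows RBL1, which had -1.17, while RBL2 had 0.10 with overlapping groups. The exact two-sided permutation test gave p = 0.1 in each line, the smallest that 3 against 3 libraries allow, and 0.143 after adjustment over the 10 ratios tested. The ratio of RBL2 to RB1 moved by 1.496 in JeKo-1, with no overlap of the groups (exact permutation p = 0.1, 0.143 adjusted). In Granta-519 it was at 0.18, with overlapping groups (exact permutation p = 0.2, 0.222 adjusted).

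**Figure D3:**
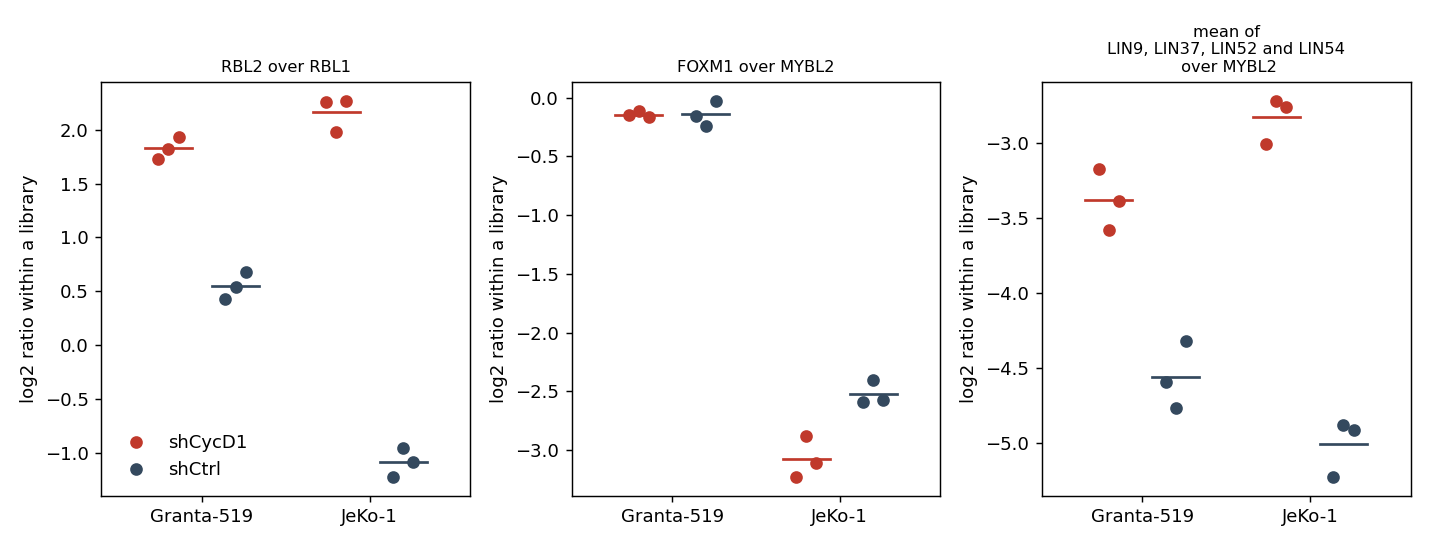
Log2 ratio of RPKM + 0.5 values within each library for RBL2 over RBL1 (left), FOXM1 over MYBL2 (middle) and the mean of LIN9, LIN37, LIN52 and LIN54 over MYBL2 (right); points are libraries, bars means, shCycD1 left of shCtrl. RBL2 over RBL1 averages 1.83 in Granta-519 shCycD1 and 0.55 in shCtrl, and 2.17 in JeKo-1 shCycD1 and -1.09 in shCtrl; levels are not comparable between the lines, whose tables appear to use different gene lengths.

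The MuvB subunits did not move as a block. LIN9 and LIN54 fell in both lines, LIN37 rose in Granta-519, and LIN52 passed the test in neither. LIN9, a scaffold subunit, had 1.03, 1.09 and 1.24 RPKM in Granta-519 shCycD1 libraries and 2.45, 2.39 and 2.92 in shCtrl. This was a fall of 0.93 (SE 0.11, limma adjusted p = 0.000854), with -0.36 and no call under spike-in scaling (adjusted p = 0.230). In JeKo-1 LIN9 had 2.19, 2.25 and 2.51 RPKM in shCycD1 libraries against 9.96, 9.92 and 11.1 in shCtrl. The groups were wide apart, and the change was -1.94 (SE 0.10, limma adjusted p = 5.25e-06), a 3.85-fold fall. LIN9 differed between the lines by 1.02 (SE 0.14, limma adjusted p = 0.000160).

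LIN54, the subunit that binds DNA, had 3.11, 3.21 and 3.44 RPKM in Granta-519 shCycD1 libraries and 5.71, 5.18 and 6.68 in shCtrl. In JeKo-1 it had 3.98, 4.41 and 4.73 RPKM in shCycD1 libraries and 7.41, 8.41 and 8.77 in shCtrl. The groups stood apart in both lines. The change was -0.75 in Granta-519 (SE 0.11, limma adjusted p = 0.00209) and -0.84 in JeKo-1 (SE 0.11, limma adjusted p = 0.000381). The Granta-519 value was -0.09 with spike-in scaling, below that scaling's median of 0.72 but not called (adjusted p = 0.799), and the JeKo-1 value was -0.54 with the GC correction. The difference between the lines was 0.08 (SE 0.15) and did not pass the test (limma adjusted p = 0.686). The sign of that difference turned under the GC correction (-0.20) and when JeKo-1 values were taken as log2 (-0.14).

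LIN37 is a subunit needed for repression by DREAM. It had 8.81, 7.58 and 9.29 RPKM in Granta-519 shCycD1 libraries and 5.94, 5.63 and 6.07 in shCtrl, a rise of 0.50 (SE 0.10, limma adjusted p = 0.00657). It was the only one of the 10 to be called higher in this line. In JeKo-1 LIN37 had 3.41, 5.61 and 3.44 RPKM in shCycD1 libraries and 3.12, 2.87 and 2.41 in shCtrl, the second silenced library standing well above the others. The groups did not overlap, but the value of 0.47 missed the test (SE 0.19, limma adjusted p = 0.0634). It was 0.26 without that library and 0.12 with the GC correction (adjusted p = 0.584). LIN37 rested on fewer reads than the other genes in Granta-519, about 147 to 231 per library when 1 step of the values is taken as 1 read, where RBL1 had about 573 to 2157 and MYBL2 about 6482 to 25040.

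LIN52, the subunit whose phosphorylation by DYRK1A joins MuvB to the pocket proteins, had 1.95, 2.098 and 1.96 RPKM in Granta-519 shCycD1 libraries and 2.17, 1.76 and 2.19 in shCtrl. In JeKo-1 it had 14.2, 15.1 and 18.9 RPKM in shCycD1 libraries and 18.1, 18.4 and 22.1 in shCtrl. The groups overlapped in both lines. The values were -0.02 (SE 0.10, limma adjusted p = 0.896) and -0.28 (SE 0.13, limma adjusted p = 0.0959). In JeKo-1 quantile normalization gave a call (-0.36, adjusted p = 0.0398), as did leaving out shCycD1 replicate 3 (-0.40, adjusted p = 0.0284). The Granta-519 value was 0.57 with spike-in scaling (adjusted p = 0.0657). RBBP4, a histone-binding protein that completes MuvB and is part of other complexes, fell too, with -0.41 in Granta-519 (limma adjusted p = 0.0067) and -0.44 in JeKo-1 (limma adjusted p = 0.000730). With spike-in scaling its Granta-519 value turned to 0.33 (adjusted p = 0.309), and in JeKo-1 it gave -0.56 without a call (adjusted p = 0.196).

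The windows of the 4 LIN genes are shown so that subunits that fell can be set beside those that did not. The first LIN9 window (chr1:226309115-226309414, minus strand) held CHR letters 60 and 3 bases before its start, which lies 603 bases inside the gene. The 2 further LIN9 windows, with starts 264 and 0 bases inside the gene and so nearer its beginning, held no match. The first LIN54 window (chr4:83010774-83011073, minus strand) held CHR letters 100 bases before its start, which lies 2118 bases inside the gene. The second LIN37 window (chr19:35748564-35748863, plus strand) held CHR letters 182 bases before its start, 238 bases inside the gene, and the first held none. The LIN52 window (chr14:74084706-74085005, plus strand) held the overlapping E2F-like letters 25 bases before the start. CHR letters thus stood beside LIN9 and LIN54, which fell, and beside LIN37, which rose in Granta-519. The MYBL2 window held none of these exact letters. Near matches were not searched for in any window, so this does not show that a site is absent. Capitals mark the matches.
LIN9: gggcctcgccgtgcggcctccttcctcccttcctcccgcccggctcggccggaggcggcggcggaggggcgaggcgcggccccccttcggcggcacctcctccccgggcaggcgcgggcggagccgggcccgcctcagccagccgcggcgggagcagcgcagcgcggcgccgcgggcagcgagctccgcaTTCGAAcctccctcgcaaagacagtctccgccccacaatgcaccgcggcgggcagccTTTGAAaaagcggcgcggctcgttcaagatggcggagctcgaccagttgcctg
LIN54: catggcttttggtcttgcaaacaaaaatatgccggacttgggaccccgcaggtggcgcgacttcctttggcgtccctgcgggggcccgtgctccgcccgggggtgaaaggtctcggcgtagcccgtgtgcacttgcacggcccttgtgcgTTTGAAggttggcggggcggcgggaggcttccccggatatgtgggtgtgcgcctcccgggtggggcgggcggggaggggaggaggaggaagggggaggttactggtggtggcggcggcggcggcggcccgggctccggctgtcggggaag
LIN37: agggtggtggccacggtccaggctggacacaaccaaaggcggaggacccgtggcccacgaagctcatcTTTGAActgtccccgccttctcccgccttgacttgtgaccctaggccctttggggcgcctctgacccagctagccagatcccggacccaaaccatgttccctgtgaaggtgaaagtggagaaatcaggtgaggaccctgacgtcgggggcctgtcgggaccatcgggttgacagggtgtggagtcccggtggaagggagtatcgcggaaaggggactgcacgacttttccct
LIN52: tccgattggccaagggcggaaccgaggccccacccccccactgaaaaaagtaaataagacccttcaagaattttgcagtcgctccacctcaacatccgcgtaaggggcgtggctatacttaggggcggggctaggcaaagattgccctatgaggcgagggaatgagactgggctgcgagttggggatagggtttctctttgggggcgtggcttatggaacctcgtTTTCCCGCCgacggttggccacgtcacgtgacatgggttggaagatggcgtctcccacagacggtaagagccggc

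MYBL2 encodes B-MYB, the MYB protein of cycling cells, which joins MuvB in S phase. It had 29.8, 39.3 and 37.0 RPKM in Granta-519 shCycD1 libraries and 101, 105 and 90.5 in shCtrl. The change was -1.48 (SE 0.12, limma adjusted p = 0.000268), a 2.79-fold fall, and -0.74 with spike-in scaling (adjusted p = 0.0221). In JeKo-1 MYBL2 had 40.7, 39.0 and 39.4 RPKM in shCycD1 libraries and 322, 258 and 275 in shCtrl. No silenced library came near a control library. The change was -2.82 (SE 0.09, limma adjusted p = 1.01e-06), a 7.07-fold fall. The lines differed by 1.34 (SE 0.16, limma adjusted p = 6.12e-05).

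FOXM1, the forkhead factor that joins B-MYB and MuvB on promoters of mitotic genes, had 26.8, 36.2 and 33.0 RPKM in Granta-519 shCycD1 libraries and 90.9, 88.7 and 88.7 in shCtrl. The control libraries were within 3 RPKM of each other. The change was -1.48 (SE 0.11, limma adjusted p = 0.000239), and -0.74 with spike-in scaling (adjusted p = 0.0227). In JeKo-1 it had 3.899, 4.85 and 4.11 RPKM in shCycD1 libraries and 53.2, 48.4 and 45.7 in shCtrl. This was the largest change of the set, -3.38 (SE 0.10, limma adjusted p = 8.64e-07) or 10.4-fold, with 0.396% of tested JeKo-1 genes as low or lower. The change was 1.90 smaller in size in Granta-519 (SE 0.16, limma adjusted p = 5.20e-06). The log base of the JeKo-1 table is inferred: with its values taken as log2, the JeKo-1 changes were -2.45 for FOXM1, -1.99 for MYBL2, -1.82 for RBL1 and -1.44 for LIN9. The differences were then 0.97, 0.51, 0.65 and 0.52, all still called. The neighbour RHNO1, a checkpoint gene that overlaps FOXM1, also fell, with -0.84 in Granta-519 (limma adjusted p = 0.000525) and -1.49 in JeKo-1 (limma adjusted p = 4.77e-06), the Granta-519 call being lost with spike-in scaling (-0.10, adjusted p = 0.758). ITFG2, which overlaps FOXM1 too, had a change of 0.06 in Granta-519 (limma adjusted p = 0.635) and 0.53 in JeKo-1, where it was called higher (limma adjusted p = 0.000705). With spike-in scaling ITFG2 lost its JeKo-1 call (0.41, adjusted p = 0.337) and was called higher in Granta-519 (0.80, adjusted p = 0.0177).

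Relative to MYBL2, FOXM1 stood lower after silencing in JeKo-1, while in Granta-519 the groups overlapped. The log2 ratio of FOXM1 to MYBL2 was -0.15, -0.12 and -0.16 in Granta-519 shCycD1 libraries and -0.15, -0.24 and -0.03 in shCtrl, with overlapping groups and a mean difference of -0.00032 (exact permutation p = 1). In JeKo-1 it was -3.23, -2.88 and -3.11 in shCycD1 libraries and -2.59, -2.40 and -2.58 in shCtrl. That is a difference of -0.55 with no overlap (exact permutation p = 0.1, 0.143 adjusted). The mean of the 4 LIN genes relative to MYBL2 was higher after silencing in 3 of 3 libraries of each line, by 1.18 in Granta-519 and 2.18 in JeKo-1 (exact permutation p = 0.1 in each, 0.143 adjusted).

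MYBL1 (A-MYB), best known from germ cells and germinal centre B cells, was tested in Granta-519 only. In Granta-519 it had 1.99, 2.40 and 2.76 RPKM in shCycD1 libraries and 4.90, 3.81 and 6.29 in shCtrl. The control libraries were widely scattered, yet stood above all silenced ones. The change was -0.91 (SE 0.18, limma adjusted p = 0.00790), and -0.27 without a call under spike-in scaling (adjusted p = 0.406). In JeKo-1 MYBL1 had 0.10, 0.30 and 0.13 RPKM in shCycD1 libraries and 0.23, 0.42 and 0.30 in shCtrl, under the minimum for testing and with overlapping groups.

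Levels of different genes are ordered here only within the JeKo-1 table, since the Granta-519 values fit a length that includes introns. The length behind the JeKo-1 values is not stated, so the order rests on the inference that it is not the genomic span. In JeKo-1 shCycD1 libraries RB1 (41.8 ± 6.46 RPKM) and MYBL2 (39.7 ± 0.91) led and overlapped (SD, n = 3 each). RBL2 and LIN52 followed at 16.1 ± 0.70 and 16.1 ± 2.47 RPKM, with overlapping libraries, and LIN54, FOXM1, LIN37 and RBL1 formed a chain of overlapping neighbours between 4.37 and 3.22 RPKM. LIN9 (2.31 ± 0.17) and MYBL1 (0.18 ± 0.11) stood lowest. In JeKo-1 shCtrl libraries the order was MYBL2 (285 ± 33.5 RPKM), RB1 (69.3 ± 11.1), FOXM1 (49.1 ± 3.76), then RBL1 and LIN52 at 20.2 ± 2.22 and 19.5 ± 2.20, which overlapped. LIN9 (10.3 ± 0.68), RBL2 (9.24 ± 1.01) and LIN54 (8.20 ± 0.71) overlapped from neighbour to neighbour, above LIN37 (2.80 ± 0.36) and MYBL1 (0.32 ± 0.09). FOXM1 thus stood between RB1 and RBL1 in shCtrl and overlapped LIN54 and LIN37 in shCycD1.

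More of the partners and modifiers of these proteins fell than rose in both lines, a balance that spike-in scaling turned round in Granta-519 (4 higher and 1 lower). Of 18 such genes 1 rose and 9 fell in Granta-519, and 4 of 17 tested rose and 11 fell in JeKo-1, beside the shares of 22.4% and 18.2%, and 36.7% and 27.8%, over all genes. Of the E2F partners of DREAM, E2F4 rose in JeKo-1 by 0.71, with 74.5 ± 4.48 RPKM in shCycD1 and 45.6 ± 3.99 in shCtrl (SD, n = 3 each; limma adjusted p = 0.000376). Its Granta-519 value was 0.04 (limma adjusted p = 0.746). E2F5 rose in JeKo-1 by 0.93 (limma adjusted p = 0.000130), and its Granta-519 value was -0.06 (limma adjusted p = 0.683). Both differed between the lines, with -0.67 and -0.99 (limma adjusted p = 0.00111 and 0.000244), and neither was called with spike-in scaling (0.20 and -0.15, adjusted p = 0.699 and 0.769). Of the DP proteins that pair with E2F, TFDP1 fell in both lines (-1.17 in Granta-519, -1.08 in JeKo-1), while TFDP2 rose in both (0.34 and 1.11). With spike-in scaling the JeKo-1 call of E2F4 was lost (adjusted p = 0.182), E2F4 was called higher in Granta-519 (0.79), and the TFDP1 call in Granta-519 was lost (-0.43). DYRK1A, the kinase that assembles DREAM, was at -0.01 in Granta-519 and -0.23 in JeKo-1 (limma adjusted p = 0.928 and 0.0641), neither called. In JeKo-1 quantile normalization called it lower (-0.31, adjusted p = 0.0208), as did leaving out shCycD1 replicate 3 (-0.30, adjusted p = 0.0380). It was called higher in Granta-519 with spike-in scaling (0.68, adjusted p = 0.0488).

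Of the kinases and cyclins that act on pocket proteins, CDK2 fell in both lines (-1.35 in Granta-519, -1.91 in JeKo-1), and so did CDK4 (-0.40 and -0.43). CDK6 had -0.41 in Granta-519, which missed the test (limma adjusted p = 0.0844), and was close to 0 RPKM in JeKo-1. In Granta-519 CDK6 was called lower without shCtrl replicate 2 (-0.54, adjusted p = 0.0288). Quantile normalization (-0.49, adjusted p = 0.0287) and library weights (-0.54, adjusted p = 0.00323) called it lower too. It stayed without a call in 12 of 15 alternatives. CCNE1 (-0.89 and -0.66) and CCNE2 (-0.85 and -2.01) fell as well, as did CCNA2, whose cyclin with CDK2 activates both B-MYB and FOXM1 (-1.46 and -3.69). Of CDK2, CDK4, CCNE1, CCNE2 and CCNA2, only the CCNA2 call held in Granta-519 with spike-in scaling. FZR1, which targets FOXM1 for destruction in G1, fell in Granta-519 (-0.31) and rose in JeKo-1 (0.57). Its Granta-519 call was lost in 7 of 16 alternatives and its JeKo-1 call with the GC correction (0.02) and spike-in scaling (0.45). Of the phosphatase genes, whose enzymes remove phosphate from pocket proteins, PPP1CA fell in Granta-519 (-0.38) and had -0.18 in JeKo-1 with no call. With the GC correction it was called lower in JeKo-1 (-0.61, adjusted p = 0.000297), and with spike-in scaling its Granta-519 value was 0.37 without a call (adjusted p = 0.167). The PPP1CA call was lost without Granta-519 shCtrl replicate 1 (adjusted p = 0.0509) or shCycD1 replicate 1 (adjusted p = 0.0527). PPP1CB, PPP1CC, PPP2CA and PPP2R2A were at -0.05, -0.17, -0.15 and -0.08 in Granta-519 with no call. In JeKo-1 they fell (-0.70, -0.39, -0.64 and -0.30), the value of PPP2R2A being 0.02 with the GC correction and its call lost in 6 of 17 alternatives. With spike-in scaling the JeKo-1 calls of CDK4, PPP1CC, PPP2CA and PPP2R2A were lost, and with quantile normalization those of CDK4 and PPP1CC.

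Of 18 genes of RB corepressors, 17 were tested in Granta-519, where 1 rose and 8 fell (median -0.11), and 18 in JeKo-1, where 4 rose and 7 fell (median 0.02). Over all tested genes 22.4% rose and 18.2% fell in Granta-519, and 36.7% rose and 27.8% fell in JeKo-1. Spike-in scaling called 7 corepressors higher and 0 lower in Granta-519. The histone deacetylases HDAC1 and HDAC2 fell in both lines (-0.36 and -0.43 in Granta-519, -0.29 and -0.81 in JeKo-1), calls that spike-in scaling ended in Granta-519 (0.38 and 0.31) and, for HDAC1, in JeKo-1. SIN3A, a scaffold for them, had 0.04 in each line with no call. SIN3B, the SIN3 protein found with DREAM, had 0.06 in Granta-519 (limma adjusted p = 0.696) and rose in JeKo-1 by 1.06 (limma adjusted p = 5.68e-05).

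The listed targets of these complexes, chosen with earlier results of these data known, fell almost throughout. Of 32 G1/S targets of E2F, 31 fell in Granta-519 (median -1.29) and 32 in JeKo-1 (median -2.52). The exception in Granta-519 was POLA1, a polymerase subunit named here after its value was seen, at 0.07. E2F1 and E2F2 had -1.42 and -1.47 in Granta-519 and -1.95 and -3.21 in JeKo-1. The licensing genes CDC6 and CDT1 had -1.36 and -1.46 in Granta-519 and -3.34 and -2.78 in JeKo-1. All 38 G2/M targets of B-MYB and FOXM1 fell in both lines, with medians of -1.35 and -3.29. Over all tested genes 18.2% fell in Granta-519 (median change 0.03) and 27.8% in JeKo-1 (median change 0.09). CCNB1, CCNB2, CDC20 and CDK1 had -1.38, -1.36, -1.52 and -1.38 in Granta-519 and -2.94, -3.48, -3.29 and -3.94 in JeKo-1. With spike-in scaling 13 G1/S targets were called lower and 1 higher in Granta-519, and 16 of the 38 G2/M targets lower. The changes of MYBL2 and FOXM1 lay within the range of the G2/M list in each line, which ran from -1.58 to -0.84 in Granta-519 and from -4.01 to -0.83 in JeKo-1.

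**Figure D4:**
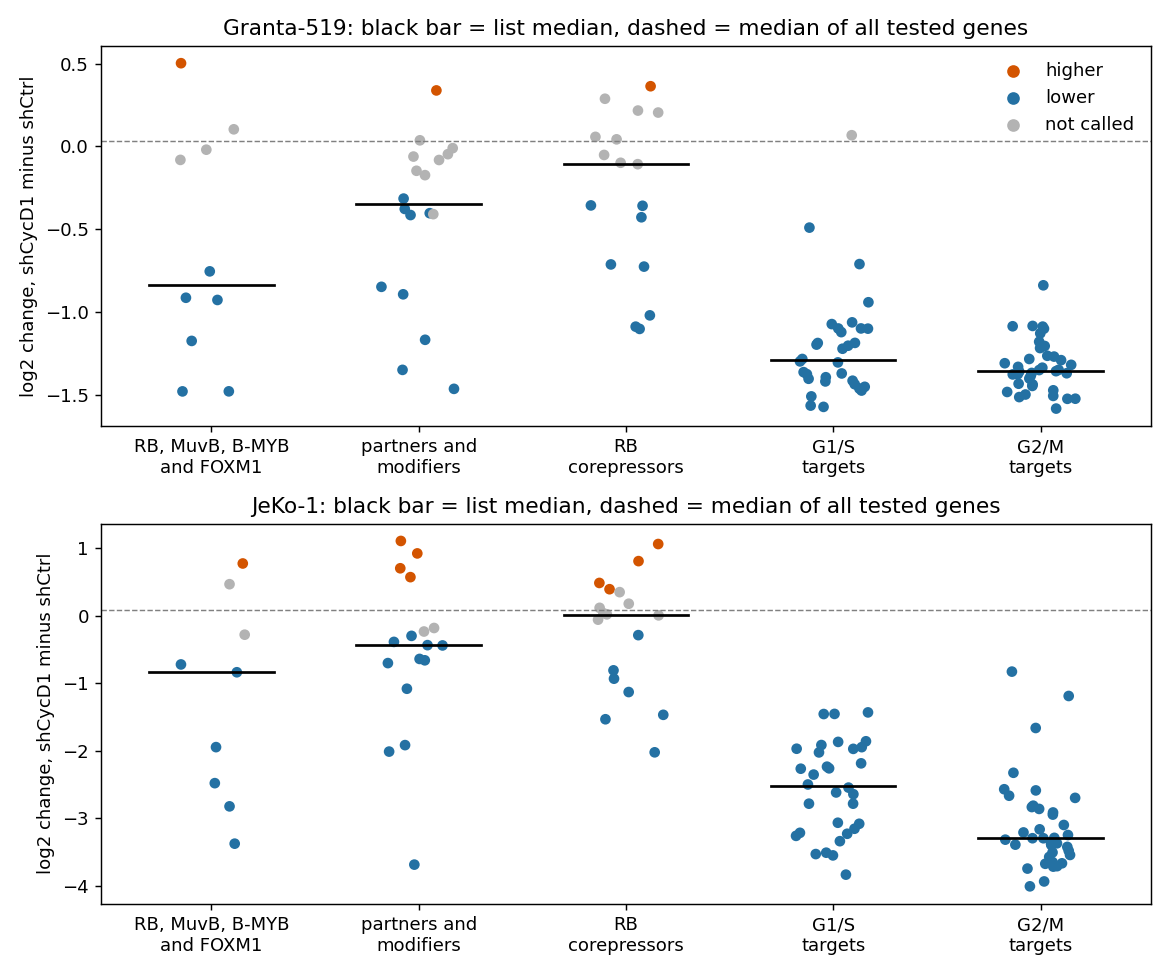
Log2 change (shCycD1 minus shCtrl) of each tested gene in 5 lists, Granta-519 above and JeKo-1 below, each on its own axis; orange points were called higher, blue lower, grey neither, black bars are list medians and the dashed line the median of all tested genes. The G1/S and G2/M lists lie almost wholly below 0, with medians of -1.29 and -1.35 in Granta-519 and -2.52 and -3.29 in JeKo-1, while the partners and corepressors spread to both sides.

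The genes most like FOXM1 over the 12 libraries, each line centred on its own mean, were POLA2, ZWINT, CDCA5, SPAG5 and FAM64A, with Pearson r of 0.998 to 0.999 among 10653 genes. For MYBL2 they were PKMYT1, HNRNPF, FEN1, CDT1 and MCM7, with r of 0.996 to 0.998. These points share their libraries and the split between shCycD1 and shCtrl, so r mainly follows that split and is given as a description. ZWINT, a kinetochore gene, had -1.44 in Granta-519 and -3.24 in JeKo-1, beside -1.48 and -3.38 for FOXM1. HNRNPF, a splicing factor gene, had a pattern of the same shape as MYBL2 but of smaller size, -0.55 in Granta-519 and -1.04 in JeKo-1.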

How the data were processed

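RNA of 12 libraries was analysed. Per the labels' protocols, an RNeasy kit gave the RNA and a stranded mRNA kit the libraries. Software in the submitters' processing notes, listed without a role, is TopHat2 2.1.1, FastQC and limma 3.9, and the builds are GRCh37 and hg19. For the counting tool, annotation and log base the sources used here hold no statement. The values the authors deposited were taken to be natural logs of RPKM + 1. In Granta-519, low values of genes with a span under 5000 bases, when the natural log was undone and each was scaled by its span, were whole multiples of 1 step in 79.9 to 83.1% of cases (tolerance 0.1, chance 20%), against 55.4 to 59.5% with base 2. For JeKo-1 the natural log is inferred: it gave a median ratio of spike-in SDs, JeKo-1 over Granta-519, of 0.97, against 0.70 with base 2. Depth is unknown in JeKo-1 and uncertain in Granta-519.

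Of each symbol the row with the highest mean was used. Genes that reached an RPKM of 1 in 3 or more of a line's 6 libraries were tested on log2(RPKM + 0.5) by limma 3.58.1 (R 4.3.3; trended empirical Bayes), a scale that understates the change of low genes. A joint fit of all 12 libraries gave the difference between the lines, for 10653 genes. The fits were tested on simulated data. Named by rule were the 10 genes, CCND1, the tested partners and modifiers, the first 4 of each further list and the 5 genes most like FOXM1 and MYBL2. Genes that overlap a member, and others outside this rule, were named after values were seen. The genes and lists were chosen with earlier results of these data known. Alternatives covered the pseudocount, low-value filter, scaling, library weights, summed rows, log base, replicate block and each library left out. The GC correction was added after the data were seen, with transcripts for 96.0% of tested Granta-519 and 96.7% of tested JeKo-1 genes. Levels were never compared between the tables, which appear to use different gene lengths: the Granta-519 values fit the genomic span and the JeKo-1 values do not, an inference from the values.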

Additional observations from a re-analysis of the deposited data

Results flagged for a closer look

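The change after silencing differed between the lines for 6 of the 9 genes tested in both, by a joint limma fit, where 41.9% of 10653 genes differed. The difference (Granta-519 minus JeKo-1) was 1.90 for FOXM1 (-1.48 and -3.38), 1.34 for MYBL2 (-1.48 and -2.82), 1.30 for RBL1 (-1.17 and -2.48) and 1.02 for LIN9 (-0.93 and -1.94). These 4 genes fell in both lines and further in JeKo-1, where CCND1 had -2.38, beside -1.83 in Granta-519. That difference of 0.55 (limma adjusted p = 0.0306) was not called with quantile normalization (0.38, adjusted p = 0.0886) and turned to -0.16 with the JeKo-1 table taken as log2 (adjusted p = 0.486). It also lost its call without Granta-519 shCtrl replicate 1 or 3, Granta-519 shCycD1 replicate 2 or 3, JeKo-1 shCtrl replicate 1, or JeKo-1 shCycD1 replicate 1 or 2 (0.45 to 0.54, adjusted p = 0.0568 to 0.0746). The part of the degree of silencing in these differences was not tested. RB1 differed by 0.64 (-0.08 and -0.72) and RBL2 by -0.67 (0.10 and 0.78). Both were called in JeKo-1 and not in Granta-519. With spike-in scaling RBL2 was called in Granta-519 and not in JeKo-1 (adjusted p = 0.0225 and 0.0880). Its difference was then 0.14 without a call (adjusted p = 0.792). The RB1 difference was 0.30 without a call with the GC correction (adjusted p = 0.110).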

How the results depend on the processing

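In Granta-519, 146 of 155 recomputed member changes kept their direction and side of the threshold. In JeKo-1, 147 of 152 did so. These tallies include summed rows, which left member values as they were, as each member had 1 row. The low-value filters and the replicate block could drop a gene or move its p-value, not its log2 change. Spike-in scaling changed the direction or the call of RB1, RBL1, RBL2, LIN9, LIN52, LIN54 and MYBL1 in Granta-519. Spike-in scaling in Granta-519 gave 2 members called higher and 2 lower; 4 partners higher and 1 lower; 7 corepressors higher and 0 lower; 1 G1/S target higher and 13 lower; and 16 G2/M targets lower. It put RB1 at 0.64 and LIN52 at 0.57 there. In JeKo-1 it gave 0 members, 2 partners and 2 corepressors called higher and 6 partners lower. In the difference between the lines it gave 0 members, 0 partners and 0 corepressors lower, 8 partners and 7 corepressors higher, and RBL2 at 0.14. A mean RPKM of 5 or more tested fewer genes and called 2 members lower and 0 partners higher in Granta-519, 2 corepressors higher in JeKo-1, and in the difference 3 members higher and 2 corepressors lower. Quantile normalization, library weights and the GC correction each called 2 corepressors higher in Granta-519. The GC correction called 3 partners higher in the difference and put LIN54 at -0.20 there, and the JeKo-1 table read as log2 called 2 corepressors higher and put LIN54 at -0.14. The log2 reading gave ratio changes in JeKo-1 of 2.39 (RBL2 to RBL1), 1.08 (RBL2 to RB1), 1.79 (MYBL1 to MYBL2) and 1.51 (the LIN genes to MYBL2). A pseudocount of 0.1 gave 1.47 (RBL2 to RBL1) in Granta-519, and 3.42 (RBL2 to RBL1) and 2.20 (MYBL1 to MYBL2) in JeKo-1. In the main setting the JeKo-1 change of MYBL1 to MYBL2 was 2.55. MYBL1 was under the minimum for testing in JeKo-1, so this ratio mostly follows MYBL2. The causes were not tested.

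With single libraries left out, members called were 6 lower and 1 higher in Granta-519, and 6 to 7 lower and 1 higher in JeKo-1. Called higher in Granta-519 were 0 to 1 partners and 0 to 1 corepressors. The Granta-519 partner count of 0 arose without shCtrl replicate 1 or shCycD1 replicate 3 (TFDP2 at 0.32 and 0.33, adjusted p = 0.0605 and 0.0579), and that of corepressors without shCycD1 replicate 1 (SUV420H1 at 0.32, adjusted p = 0.0649). The FOXM1 to MYBL2 ratio change in Granta-519 ran from -0.051 to 0.057. LIN52 in Granta-519 ran from -0.10 to 0.023, with 0.019 without shCtrl replicate 1 and 0.023 without shCtrl replicate 3, and the LIN37 difference from -0.075 to 0.25 (-0.025, -0.037, -0.075 and -0.070 in the 4 cases below 0).

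Libraries with the same replicate number deviated together at r of 0.09 to 0.19 in JeKo-1, each correlating best with its own number. In Granta-519 r was -0.12 to 0.03. The main fits did not take the numbers as pairs in either line, though the JeKo-1 values leave pairing possible there. With the replicate number as a block, 2 members were called higher in JeKo-1 (LIN37 at 0.47, adjusted p = 0.0376) and LIN52 was called lower (-0.28, adjusted p = 0.00823).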

Other observations

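Promoter letters were set beside the changes of all tested genes with a RefSeq window, as a description without a test. In Granta-519, 41.9% of 172 genes with both E2F-like and CHR letters were called lower (median -0.19), against 16.4% of 6535 genes with neither (median 0.05). In JeKo-1 it was 46.5% of 170 genes with both (median -0.24) against 26.0% of 6308 with neither (median 0.11). E2F-like letters alone or with CHR letters went with 32.8% called lower in Granta-519 and 42.6% in JeKo-1. CHR letters alone or with E2F-like letters went with 24.6% and 36.9%. Over all tested genes with a window 19.0% were called lower in Granta-519 and 29.2% in JeKo-1. Of genes with E2F-like letters 15.5% were called higher in Granta-519 and 27.5% in JeKo-1, beside 22.2% and 35.7% of all with a window. Whether base composition moves with these shares was not tested.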
